A study of Drosophila melanogaster with 2 samples.

Results

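Distal intronic binding sites of chameau (chm) were examined here: peaks of chm fused to eGFP whose summit lay inside a gene, in no exon, and more than 5000 bp from the nearest protein-coding transcript start. Membership was decided by position alone, on Ensembl gene models of the dm6 genome with transposable elements left out. The rule kept 395 of the 4202 peaks in the conservative list, or 9.40% (95% Wilson interval 8.55 to 10.3%). That list holds the peaks that passed the authors' threshold when both replicates were compared by their irreproducible discovery rate (IDR), which rates how consistently a peak ranks in each. The study had 1 group, embryos of the strain chm-GFP, which carries an insertion at D. melanogaster chm that tags the protein with eGFP. Whole embryos aged 0 to 24 h were sonicated, and the chromatin was immunoprecipitated with an anti-GFP antibody and sequenced in 2 biological replicates. No untagged, mutant or staged group is among the samples, and the control experiment named in the labels was not used here, so members are set beside the other peaks of the same list. Read totals are not part of the peak lists, and the depth is therefore unknown. In chromatin of whole embryos, strong binding in few cells and weak binding in many cells cannot be told apart.

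The protein belongs to the MYST acetyltransferases, which modify histones, and in Drosophila it is known to act with Polycomb group genes in silencing and with the JNK pathway in epithelial closure. Long introns of Drosophila developmental genes are known to carry enhancers, stretches of DNA bound by transcription factors that act on a promoter at a distance. Acetyltransferases are usually brought to DNA by other factors.

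The sequence at the summit is shown for the 6 strongest members that were also found in the list of each replicate and lie on the chromosome arms whose sequence is shown here, to give an example of such sites. The members in sbb, in Hr3 with CG46321 and in lncRNA:CR44810 described below, some of them stronger, are not among those shown. Each sequence runs 100 bases to either side of the summit and is written on the strand of the host gene, the gene whose intron holds the peak, from the RefSeq release 6 (dm6) genome. The 6 lie in CG32486 (chr3L:3060682-3060882, minus strand), JIL-1 (chr3L:11084670-11084870, minus strand), fz (chr3L:14303965-14304165, plus strand), Gug (chr3L:8458226-8458426, plus strand), rdx (chr3R:14012634-14012834, minus strand) and Raf (chrX:2300604-2300804, plus strand). Capitals mark every match, on either strand, to the 20 short motifs searched, of which those described further on are spelled out there.
CG32486: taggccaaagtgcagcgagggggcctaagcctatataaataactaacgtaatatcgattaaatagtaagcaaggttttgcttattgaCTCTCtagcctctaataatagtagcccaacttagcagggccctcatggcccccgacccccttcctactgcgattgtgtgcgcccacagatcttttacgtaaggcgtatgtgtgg
JIL-1: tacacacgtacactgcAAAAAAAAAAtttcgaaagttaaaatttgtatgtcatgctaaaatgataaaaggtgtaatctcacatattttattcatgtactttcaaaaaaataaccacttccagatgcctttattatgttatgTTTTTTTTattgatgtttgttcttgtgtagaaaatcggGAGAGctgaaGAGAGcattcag
fz: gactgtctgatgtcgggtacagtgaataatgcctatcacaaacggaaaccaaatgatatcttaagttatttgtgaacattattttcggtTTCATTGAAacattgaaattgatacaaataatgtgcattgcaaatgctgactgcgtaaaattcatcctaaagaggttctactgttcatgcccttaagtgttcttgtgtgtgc
Gug: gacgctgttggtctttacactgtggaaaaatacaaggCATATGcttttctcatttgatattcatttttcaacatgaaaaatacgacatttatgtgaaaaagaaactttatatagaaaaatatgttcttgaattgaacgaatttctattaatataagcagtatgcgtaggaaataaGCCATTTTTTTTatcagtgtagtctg
rdx: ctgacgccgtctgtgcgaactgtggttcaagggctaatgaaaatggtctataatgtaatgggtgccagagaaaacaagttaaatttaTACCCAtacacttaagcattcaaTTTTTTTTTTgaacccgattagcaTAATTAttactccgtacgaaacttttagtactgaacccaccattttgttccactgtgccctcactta
Raf: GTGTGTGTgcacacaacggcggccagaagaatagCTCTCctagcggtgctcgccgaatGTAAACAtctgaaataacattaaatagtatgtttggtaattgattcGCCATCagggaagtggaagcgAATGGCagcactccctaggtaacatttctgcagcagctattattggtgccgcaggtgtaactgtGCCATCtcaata

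The 6 windows shown had no searched motif in common. GAGAG, the core of the site of the GAGA factor Trl, stood in the windows of CG32486, JIL-1 and Raf, runs of 8 or more A or T in those of JIL-1, Gug and rdx, and the window of fz held only the spaced palindrome TTCNNNGAA, the form of site bound by STAT proteins. The strongest further members holding 4 motifs discussed below are shown with 50 bases to either side of the summit: lncRNA:CR32773 (chrX:4590124-4590224, minus strand) for GAGAG, S (chr2L:1072313-1072413, minus strand) for GTAAACA, DIP-alpha (chrX:3546272-3546372, minus strand) for CACACT and beat-Ib (chr2L:15911262-15911362, minus strand) for ATATTAAA.
lncRNA:CR32773: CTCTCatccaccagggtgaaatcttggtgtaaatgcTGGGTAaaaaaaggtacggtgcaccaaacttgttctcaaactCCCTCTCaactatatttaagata
S: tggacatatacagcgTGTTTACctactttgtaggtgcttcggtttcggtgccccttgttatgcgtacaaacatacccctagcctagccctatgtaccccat
DIP-alpha: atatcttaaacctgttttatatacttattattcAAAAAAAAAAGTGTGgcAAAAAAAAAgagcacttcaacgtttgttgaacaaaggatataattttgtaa
beat-Ib: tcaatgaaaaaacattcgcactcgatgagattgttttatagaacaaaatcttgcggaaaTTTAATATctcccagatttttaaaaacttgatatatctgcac

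The 15 strongest members found in both replicate lists had conservative signals of 279 to 489. Signal is the peak caller's enrichment value as deposited, on a scale not stated in the sources used here. Replicate values were read from each replicate's own ranked list, and values of different lists are not on a shared scale. The peak in CG32486 had a signal of 254 in replicate 1 and 224 in replicate 2 (239 ± 21.5, SD, n = 2) and 489 in the conservative list, where it ranked 63 among all peaks. JIL-1, which encodes a kinase of histone H3, carried a peak of 214 and 207 in replicates 1 and 2 (211 ± 4.50, SD, n = 2; conservative 423). At these 2 sites the deposited values of the replicates were close, with SDs well below their means. Because the scales are not shared, these SDs do not measure how well the replicates match. In sbb, which encodes a nuclear corepressor, the strongest of 5 members reached 326 in replicate 1 and 110 in replicate 2 (218 ± 153, SD, n = 2; conservative 443). The gene fz encodes a Frizzled receptor for Wnt and planar polarity signals. Its peak, 25281 bp from the nearest protein-coding start, that of CG13482, had 306 and 95.9 (SD 149, n = 2; conservative 408). At both sites the value of replicate 1 was well above that of replicate 2, and how far either replicate set their rank was not tested.

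Next in signal came members in Hr3, Gug, lncRNA:CR44810, rdx and Raf. A peak inside the overlapping genes Hr3, which encodes an ecdysone-inducible nuclear receptor, and CG46321 had signals of 193 and 188 in replicates 1 and 2 (191 ± 3.43, SD, n = 2; conservative 392). In Gug, which encodes the corepressor Atrophin, the values were 214 and 172 (193 ± 29.9, SD, n = 2; conservative 392). A long non-coding RNA gene, lncRNA:CR44810, held a peak of 184 and 198 (191 ± 10.1, SD, n = 2; conservative 381). In rdx, which encodes an adaptor of a ubiquitin ligase that acts on Ci in Hedgehog signalling, they were 220 and 137 (179 ± 58.6, SD, n = 2; conservative 365). Raf encodes the MAP kinase kinase kinase downstream of Ras, and its strongest member had 164 and 193 (178 ± 20.1, SD, n = 2; conservative 363). The ratio of replicate 1 over replicate 2 was largest among the 15 at Ptp61F, a tyrosine phosphatase gene, with 258 and 48.4 (153 ± 148, SD, n = 2; conservative 309), and at S, which encodes Star, a factor in the processing of EGF receptor ligands, with 228 and 61.9 (145 ± 118, SD, n = 2; conservative 287). At beat-Ib, a member of the beaten path immunoglobulin family, replicate 2 was the higher, with 128 and 154 in replicates 1 and 2 (141 ± 18.4, SD, n = 2; conservative 280). Hr4, another ecdysone-inducible nuclear receptor gene, completed the 15 strongest with 160 and 125 (143 ± 25.3, SD, n = 2; conservative 279), beside a further 2 members of sbb at conservative signals of 414 and 292.

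As a class, distal intronic peaks were slightly weaker than the list as a whole. Their median signal was 89, with quartiles of 71.9 and 127 and a range of 2.93 to 489, against a median of 94.1 and quartiles of 72.5 and 136 for all peaks. The other classes had medians of 92.2 (intronic and within 5000 bp of a start), 90.5 (intergenic), 83.5 (exonic) and 98.9 (promoter, within 500 bp of a protein-coding start). Only 5 of the 100 strongest peaks of the list were members. In the lists of the separate replicates the ratio of the member median to the median of all peaks was 0.992 in replicate 1 and 0.934 in replicate 2 (0.963 ± 0.0408, SD, n = 2), so the gap was below the replicate SD in 1 of the 2. The rule kept 371 of 3554 peaks (10.4%) in replicate 1 and 334 of 4106 (8.13%) in replicate 2.

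A lower share of members than of promoter peaks was found in both replicate lists. A thresholded peak of replicate 1 overlapped 233 members (59.0%, Wilson interval 54.1 to 63.7%), against 62.9% of all peaks, with overlap taken as 50% of the shorter peak. A peak of replicate 2 overlapped 209 members (52.9%, 48.0 to 57.8%), against 63.7% of all peaks. Both replicates had 144 members (36.5%, 31.9 to 41.3%), against 46.3% of all peaks and 52.7% of promoter peaks. Neither had 97 members (24.6%, 20.6 to 29.0%), against 19.6% of all peaks and 16.0% of promoter peaks. Near intronic (42.7%), intergenic (38.8%) and exonic peaks (36.3%) were in both lists at shares between those of promoters and members or close to the members' share. These intervals cover counting error only, and peaks are not replicates, so no test was made.

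**Figure D1:**
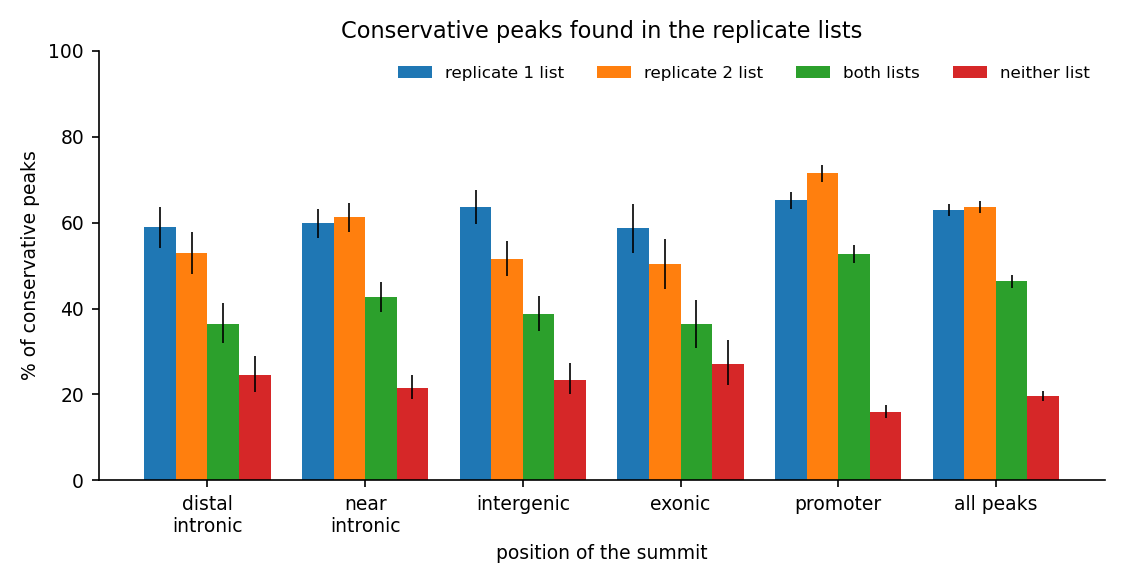
Share of peaks of the conservative list (y axis, %) that a thresholded peak of replicate 1, replicate 2, both or neither overlapped, by position of the summit, with 95% Wilson intervals as error bars. Distal intronic peaks had 36.5% in both lists, against 52.7% at promoters, and the largest gap between the classes was in replicate 2.

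The difference from all peaks was widest at middling signals. Among peaks with a signal over 94.1 and up to 136, the third quartile of the list, 42 of 93 members (45.2%, Wilson interval 35.4 to 55.3%) were in both replicate lists, against 63.9% (61.0 to 66.8%) of all such peaks. Replicate 1 held 79.6% of these members and 80.3% of all such peaks, while replicate 2 held 62.4% of the members and 82.4% of all. In the strongest quartile, 79 of 87 members (90.8%) were in both, against 94.7% of all peaks. In the second quartile, with a signal over 72.5 and up to 94.1, both lists held 16 of 111 members (14.4%), against 21.5% of all peaks. There replicate 1 held 51.4% of the members and 50% of all, and replicate 2 held 40.5% of the members and 52.6% of all. In the weakest, up to a signal of 72.5, it was 7 of 104 members (6.73%), against 4.95% of all. In that quartile replicate 1 was the one with the lower share, 17.3% of members against 23% of all, while replicate 2 held 23.1% of members and 23.6% of all. Replicate support was thus higher at higher signals for members and for all peaks, and the 2 shares were farthest apart in the third quartile.

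The same tilt towards replicate 1 was seen in the signals themselves. For the 363 members matched to a ranked peak in each replicate, the median log2 ratio of replicate 1 over replicate 2 was 0.29, with quartiles of -0.13 and 0.75, and replicate 1 was higher at 244 members (67.2%). Over all peaks the median was 0.11, and replicate 1 was higher at 57.7%. At promoters it was 0.03 and 52.3%, and at intergenic peaks, which resembled members, 0.28 and 67.9%. Replicate 1 was over 2-fold higher at 60 members and replicate 2 at 5, but the same counts are not given for all peaks. Values of the 2 replicates are not on a shared scale. In their thresholded lists the median over all peaks was 57.8 in replicate 1 and 50.6 in replicate 2. The Spearman correlation between replicates across the 363 members was 0.338, a description, since the members share both libraries. Depth and enrichment of the replicates are unknown, and their part in the tilt was not tested.

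**Figure D2:**
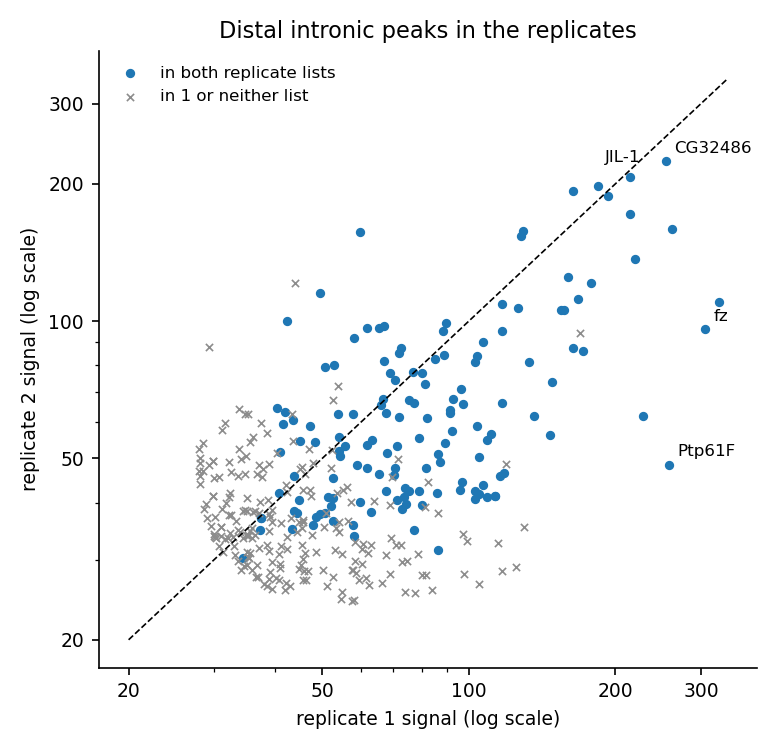
Signal of each distal intronic peak in replicate 1 (x axis) and replicate 2 (y axis), both on log scales, as circles where the peak was in both replicate lists and crosses otherwise. The dashed line marks equal values, and 244 of 363 peaks lie on the side where replicate 1 is higher, with Ptp61F (258 and 48.4) among the farthest from it.

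Peak density in introns was lower far from a start than near one, in the conservative list and in both replicate lists. Eligible bases, those in which the rule could have found a member, made up 31.8 Mb or 23.2% of the genome, and held 12.4 members per Mb against 30.6 peaks per Mb over the whole genome. Introns 500 to 1000 bp from a start held 61.1 peaks per Mb, those 1000 to 2000 bp away 41.6 and those 2000 to 5000 bp away 25.2. Beyond the limit, members numbered 129 at 5000 to 7500 bp (20.4 per Mb), 86 at 7500 to 10000 bp (19.0 per Mb) and 86 at 10000 to 15000 bp (14.8 per Mb). There were 42 at 15000 to 20000 bp (12.6 per Mb) and 34 at 20000 to 30000 bp (9.89 per Mb). The last 2 classes were thinly filled, with 11 members at 30000 to 50000 bp (4.28 per Mb) and 7 beyond (1.21 per Mb). The density beyond 50000 bp was 16.8-fold below that at 5000 to 7500 bp. The bases counted include 0.851 eligible Mb on the Y, which held no peak of the conservative list. How these bases are spread over the distance classes is not given here, and their part in the fold was not tested. Without the thin classes the farthest density was 9.89 per Mb at 20000 to 30000 bp, against 20.4 per Mb at 5000 to 7500 bp. Replicate 1 gave 18.7 and 11.6 per Mb at 5000 to 7500 and 20000 to 30000 bp, and replicate 2 gave 18.5 and 10.5. At 15000 to 20000 bp each gave 10.2, so the fall was not steady in the replicate lists. The median distance of a member was 9353 bp, and 215 members (54.4%) lay within 10000 bp.

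Weak candidate peaks did not thin out in this way. The ranked list of the replicate pair holds peaks of any strength, of which 3.88% were in the conservative list. At distal intronic positions it held 21512 peaks (19.9% of the ranked list), of which 395 (1.84%) were in the conservative list, against 4.50% of near intronic, 2.24% of intergenic, 1.03% of exonic and 14.2% of promoter candidates. Ranked peaks stood at 734 per Mb at 5000 to 7500 bp, at 716 per Mb at 20000 to 30000 bp and at 454 per Mb beyond 50000 bp, 1.62-fold below that at 5000 to 7500 bp. The share of them past the threshold was 2.78% at 5000 to 7500 bp, 1.38% at 20000 to 30000 bp and 0.267% beyond 50000 bp. The members' median signal showed no steady course, with 87.6 at 5000 to 7500 bp, 88.4 at 7500 to 10000 bp, 84.3 at 10000 to 15000 bp, 85.5 at 15000 to 20000 bp and 101 at 20000 to 30000 bp. In the thin classes it was 131 at 30000 to 50000 bp and 78.1 beyond 50000 bp, over 11 and 7 members.

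**Figure D3:**
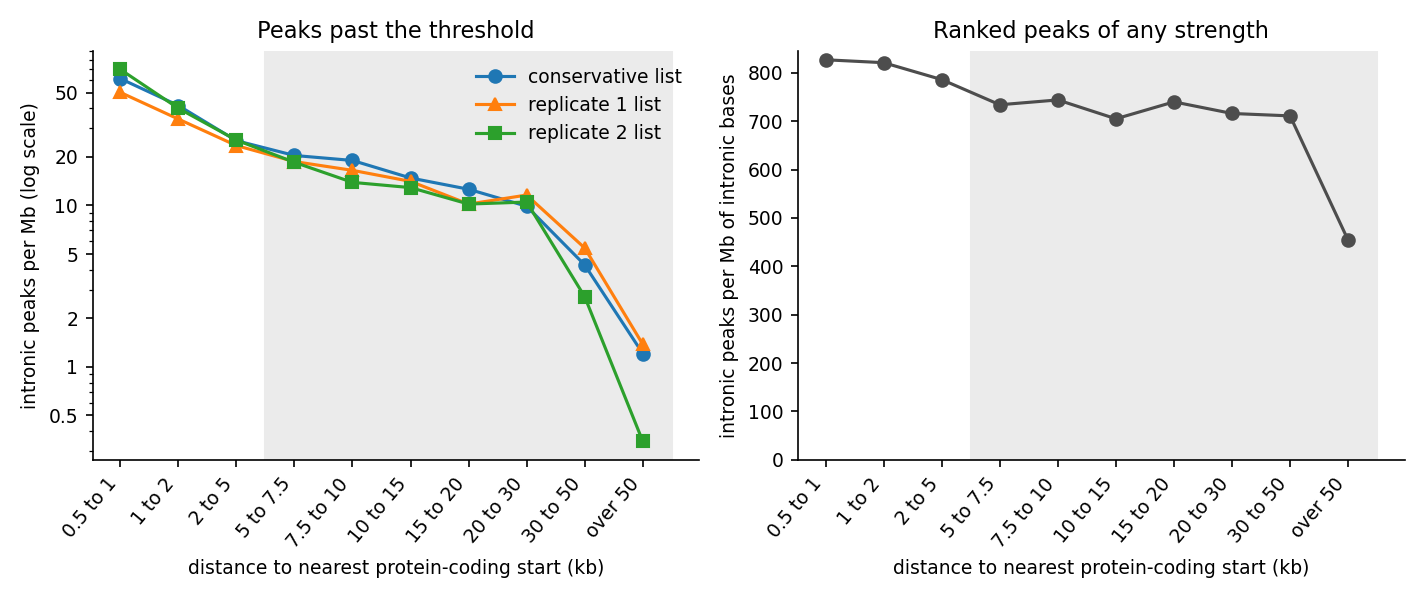
Intronic peaks per Mb of intronic bases by distance to the nearest protein-coding start (x axis, kb), for peaks past the threshold (left, log scale) and ranked peaks of any strength (right, linear scale), with distal classes shaded. Thresholded peaks were down to 1.21 per Mb beyond 50 kb in the conservative list, whereas ranked peaks stayed between 705 and 744 per Mb from 5 to 30 kb and reached 454 beyond 50 kb. Intronic bases of the Y, which held no peak of the conservative list, are included.

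The 3 members nearest the limit were in bun (5008 bp, signal 81.3), corn (5041 bp, 97.2) and Lrch (5049 bp, 266). Just outside it lay peaks in ush (4970 bp, 232), tara (4998 bp, 189) and cv-c (5000 bp, 98.9). Signals on the 2 sides of the limit overlapped.

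Members were spread over the large arms. The X carried 85 (14.9 per eligible Mb), 2L 62 (13.2), 2R 57 (11.0), 3L 73 (12) and 3R 116 (12.9). On the X the 2 replicate lists gave 13 and 11.9 per Mb, on 2R 10.4 and 8.89. Chromosome 4 had 2 members (7.03 per Mb), both in zfh2, and the Y had 0 in 0.851 eligible Mb, which allows up to 3.52 per Mb. On 2L the replicate lists gave 14.3 and 11.3 per Mb, so 2L was above the X in replicate 1, and the order of the arms was not the same in every list. Over all peaks the X had 27.1 per Mb, fewer than 2L (32.9), 2R (35.0), 3L (33.2) and 3R (29.8).

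Within genes, the share of members in first introns was above the share of bases there. Of the 395 members, 198 (50.1%, Wilson interval 45.2 to 55.0%) lay in the first intron of at least 1 annotated transcript, against 31.9% of eligible bases. First introns lie near starts by construction, and the share was also compared within 3 distance classes. These are wide: beyond 20000 bp alone, the density of members ran from 9.89 per Mb at 20000 to 30000 bp to 1.21 beyond 50000 bp. The comparison thus does not remove distance, and its part in the excess was not tested. At 5000 to 10000 bp, 56.3% of 215 members were in first introns, against 44.9% of eligible bases. At 10000 to 20000 bp it was 45.3% of 128, against 35.5%, and beyond 20000 bp 36.5% of 52, against 17.0%. In density, first introns held 24.8, 17.8 and 9.49 members per Mb in these 3 classes, and other introns 15.7, 11.8 and 3.37. The introns were long, with a median of 16796 bp (quartiles 9802 and 28732), and members lay a median of 4456 bp from the nearest host exon, 25 of them within 500 bp.

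No member lay in an annotated transposable element, although these made up 8.96% of eligible bases. A count of 0 in 395 allows a share of up to 0.759%, for counting error only. In repeats marked in lower case in the genome sequence, members were also fewer than the bases, with 81 (20.5%) against 26%. How well reads can be placed in such repeats is not known from the peak lists, and its part in these counts was not tested.

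The 395 members fell in 231 genes, of which 215 were protein-coding, and 20 members lay in non-coding genes only. A single member was found in 130 hosts, 2 members in 59, 3 in 20 and 4 or more in 22. The 101 hosts with at least 2 members (43.7%) held 270 of them, and 183 members (46.3%) had another within 5000 bp. These counts, and those per host and per group below, include 24 members within 336 bp of a stronger peak of the list. Without peaks that close to a stronger one, 37.8% of hosts had 2 or more members. Genes that offered more room were hosts at a higher share: 0 of 411 genes with under 1 kb of eligible bases held a member, 5.66% of those with 1 to 5 kb, 13.9% with 5 to 20 kb, 24.5% with 20 to 50 kb and 27.4% above 50 kb. Over all 1857 protein-coding genes with an eligible base it was 11.6%. The nearest protein-coding start belonged to the host itself for 260 members (65.8%), and the other members lay nearer a start of another gene.

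SKIP, named for an interaction with the Shal potassium channel, held the most members, 9, spread over 97622 bp of 3R. Of these, 6 formed a group within 14543 bp at the 5' end, with conservative signals of 86.0 to 253, and 5 of the 6 were in both replicate lists. The 5 members of sbb included the densest strong group, 4 peaks over 5104 bp with conservative signals of 161, 292, 414 and 443. All 4 were in both replicate lists, with 89, 178, 261 and 326 in replicate 1 and 84.4, 121, 159 and 110 in replicate 2. Raf held 7 members, 3 of them in both replicate lists, in 20.3 kb of eligible bases (345 per Mb). The same number lay in how, which encodes an RNA-binding protein of muscle and tendon (7 members, 2 in both lists), and in kirre, which encodes an adhesion protein of muscle founder cells (7 members, 3 in both lists, in 233 kb).

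The other hosts with at least 4 members were of varied kinds. The homeobox gene hth held 6 members, 2 of them in both replicate lists, and the Hox gene Antp 4, also with 2 in both. EcR, the ecdysone receptor gene, held 5 (2 in both), Hr4 4 (3 in both), and Smr, which encodes a nuclear corepressor of EcR, 5 (3 in both). Both Frizzled receptor genes were among them, fz with 5 members (2 in both lists) and fz2 with 5, of which 0 were in both lists and 1 was in that of replicate 1. Raised member numbers thus did not always go with replicate support. The remaining hosts of this kind were simj, which encodes a subunit of a nucleosome remodelling complex (5), rdx (5), CG42342 (6), CG42238 (4), the overlapping CG46467 and Glut4EF, which share the same 4, and MSAmiP (4). The non-coding genes lncRNA:iab8 of the bithorax complex (6), lncRNA:CR44357 (5) and lncRNA:CR32773 (4) completed them. MSAmiP overlaps lncRNA:iab8, and its 4 members are among the 6 of that gene. Over the whole class, 20 groups of 3 or more members chained by gaps of at most 5000 bp held 69 members.

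**Figure D4:**
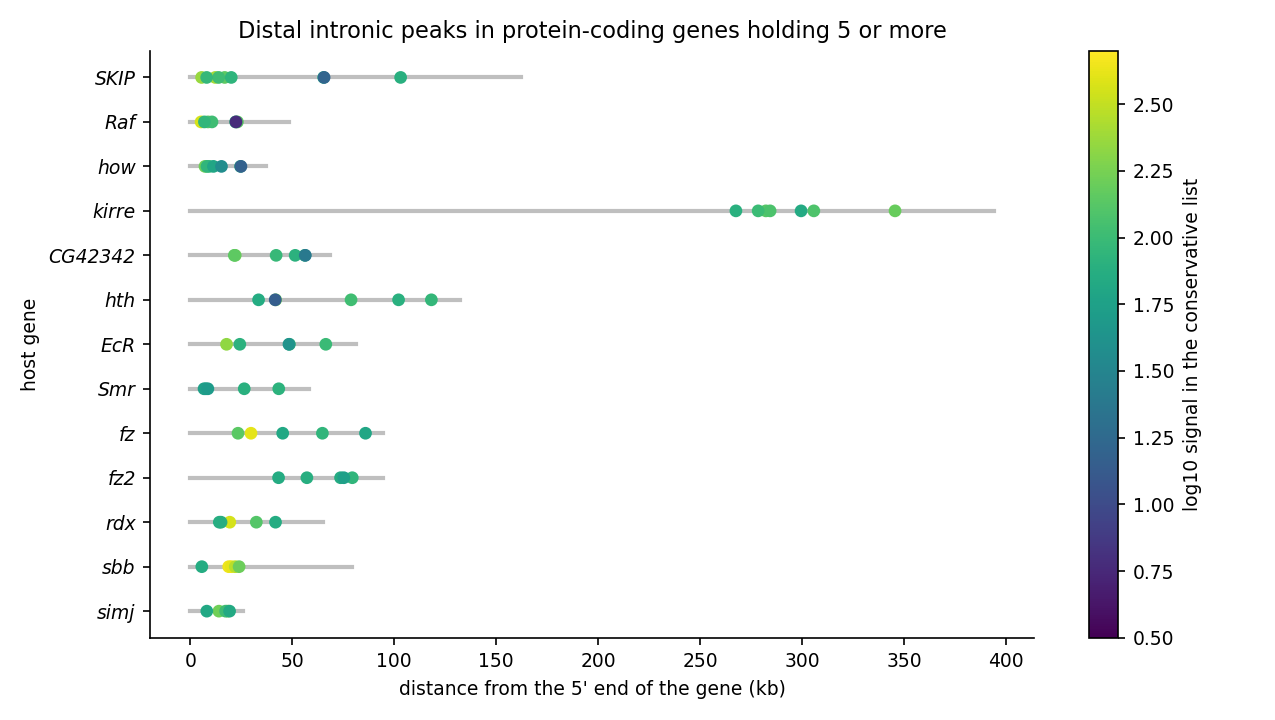
Distal intronic peaks along the protein-coding genes that hold 5 or more, as distance from the 5' end of the gene (x axis, kb), with grey bars for gene length and colour for the log10 of the conservative signal. In SKIP 6 of the 9 lie together near the 5' end, and in sbb 4 of the 5 lie within 5104 bp.

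By role, the share of hosts was above that of all genes for signalling, ecdysone response and developmental transcription factor genes, while for ion channel and synaptic genes its interval included the share of all genes. The 9 gene lists described were drawn up from textbook roles with earlier results of these data known. Each share below is of list genes with an eligible base and stands beside 11.6% for all such genes. The lists are not matched to all genes in room, and all but the Polycomb list have a higher median of eligible bases. It was 11.9 kb in signalling and 13.2 kb in transcription factor genes, against 6.06 kb over all. Of all genes with 5 to 20 kb 13.9% were hosts, and of those with 20 to 50 kb 24.5%. The part of room in these shares was not tested. Signalling receptor and pathway genes included 15 hosts of 40 (37.5%, Wilson interval 24.2 to 53.0%), with 44.1 members per eligible Mb against 12.4 over all. Their strongest members were in fz (conservative signal 408), S (287) and the receptor gene N (213), where replicates 1 and 2 gave 117 and 94.9. In the separate replicate lists 45.0% and 25% of the signalling genes were hosts, a spread of 14.1 (SD, n = 2).

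Ecdysone response genes included 7 hosts of 15 (46.7%, 24.8 to 69.9%; 40% and 60% in the lists of replicates 1 and 2) with 16 members. Their median signal was 138, against 89 for all members. Hr3 (392) and Hr4 led them, and Hr4 held 3 strong members at conservative signals of 279, 261 and 213. In replicates 1 and 2 these had 160 and 125, 157 and 106, and 59.8 and 157, so replicate 2 was the higher at the last alone. The strongest EcR peak reached 216, with 107 and 89.8 in the replicates. These genes are large, with a median of 38.5 kb of eligible bases against 6.06 kb for all genes with any.

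JNK signalling and dorsal closure genes, the processes in which chm itself acts, included 7 hosts of 15 (46.7%, 24.8 to 69.9%; 40.0% in each replicate list). The gene chm is in this list and the next, and its 2 members are in both counts. Without chm, a choice made after the data were seen, the JNK list held 6 hosts of 14 (42.9%, 21.4 to 67.4%). The 11 members had a median signal of 94.2. The strongest lay in tkv, which encodes a receptor for Dpp, with a conservative signal of 163 but 125 in replicate 1 and 28.9 in replicate 2. The next was in chm (132), described below, and another lay in dpp, the ligand gene, with 53.9 and 71.9 in the replicates and 121 in the conservative list. The JNK phosphatase gene puc held 2 members, at 120 and 72.8, of which the first was in both replicate lists. Polycomb, trithorax and acetyltransferase genes included 5 hosts of 15 (33.3%, 15.2 to 58.3%; 33.3% and 26.7% in the lists of replicates 1 and 2). Without chm it was 4 of 14 (28.6%, 11.7 to 54.6%), the lower end close to the 11.6% of all genes. Psc, which encodes a subunit of a Polycomb repressive complex, carried a peak of 162, osa, which encodes a subunit of the Brahma remodelling complex, 148, and jing, which encodes a zinc finger protein, 140. At Psc the replicates gave 67.0 and 97.6, at osa 58.1 and 91.9, and at jing 117 and 28.3, so the tilt towards replicate 1 was not shared by Psc and osa.

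Developmental transcription factor genes included 17 hosts of 57 (29.8%, 19.5 to 42.7%) with 36 members, led by the ETS factor gene pnt (176), hth (162) and the caudal gene cad (132). In the replicate lists 31.6% and 17.5% of them were hosts, and 9.92 was the SD. Axon guidance and cell adhesion genes included 17 of 63 (27.0%, 17.6 to 39.0%), led by beat-Ib (280), the semaphorin gene Sema1a (174) and kirre (153). Their density of 13.4 members per Mb was close to the 12.4 of all, and these genes offer a median of 23.9 kb of eligible bases. RNA-binding and splicing regulators included 5 of 20 (25%, 11.2 to 46.9%; 10.7 per Mb), led by how (163) and the splicing regulator gene heph (110). The median of eligible bases in this list was 49.2 kb. Muscle structure and fusion genes included 3 of 17 (17.6%, 6.19 to 41.0%), namely how, kirre and mbc, and mbc held 1 of their 15 members. Ion channel and synaptic genes were hosts in 3 of 41 cases (7.32%, 2.52 to 19.4%; 3.65 members per Mb), the calcium channel genes Ca-beta (112) and Ca-alpha1T (98.9) and the anchoring protein gene rg (102). Their median was 16.9 kb of eligible bases, against 6.06 kb for all genes with any. Some genes stand in more than 1 list, and no test was made over lists.

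**Figure D5:**
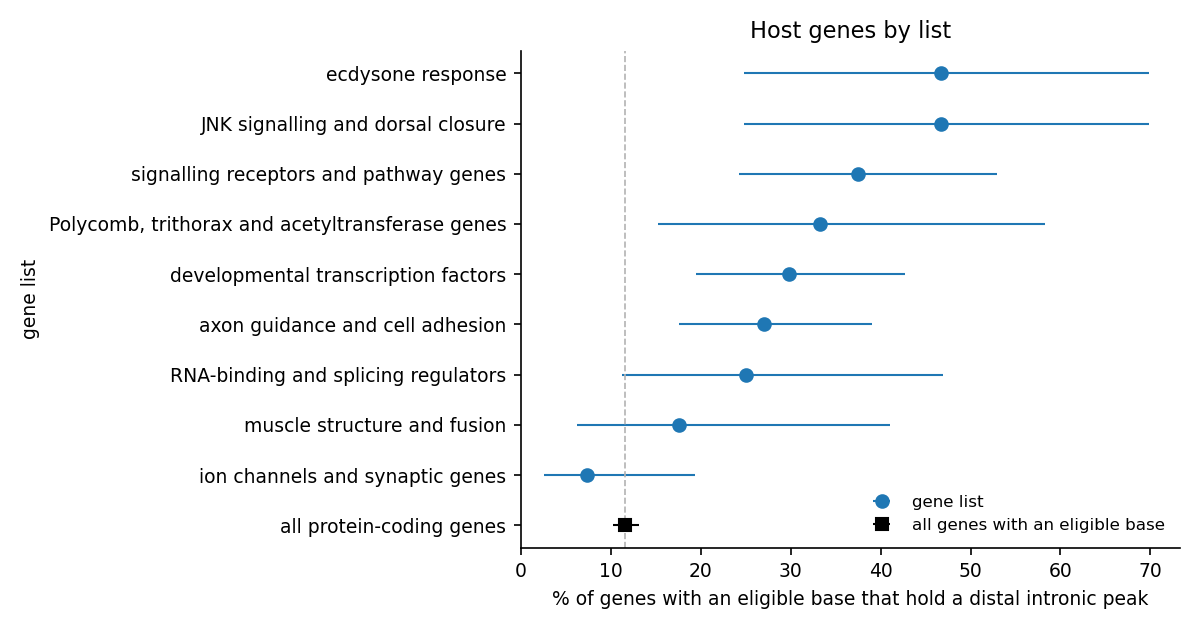
Share of genes with an eligible base that hold a distal intronic peak (x axis, %), for each of 9 gene lists (circles) and all protein-coding genes (square, dashed line), with 95% Wilson intervals. The intervals of the JNK, ecdysone, signalling, Polycomb and trithorax, transcription factor and axon guidance lists lie above 11.6%, and the other 3 include it. Lists and all genes are not matched in eligible bases.

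The chm gene itself (2L, 7412417 to 7422736, dm6) carried 2 members. The peak at 7420694 to 7421029 had signals of 67.5 and 62.8 in replicates 1 and 2 (conservative 132) and was in both replicate lists. It lay 6004 bp from the nearest protein-coding start, that of muc. The peak at 7418430 to 7418765 had 56.2 and 43.3 (conservative 94.2) and was in the list of replicate 1. A promoter peak at chm had a conservative signal of 117. The line carries an insertion at this gene, and whether the insertion bears on these peaks was not tested.

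The motif shares of members differed from those of flanking sequence and of promoter peaks in a few motifs. The search covered both strands within 100 bp of the summit and of points 1000 bp to either side on the arm. GAGAG stood at 129 members (32.7%, Wilson interval 28.2 to 37.4%), against 25.1% and 21.0% of the flanking points. It stood at 24.8% of the ranked distal intronic peaks outside the list and at 33.1% of promoter peaks. In the replicate lists the share was 31.8% and 33.8%, so both replicates had it above the flanks of the members. By contrast, TATCGATA and CAGCTG were at lower shares in members than in promoter peaks. TATCGATA, the site of the promoter factor DREF, was at 1 member (0.253%), against 5.47% of promoter peaks. CAGCTG, an E-box, was at 7.09% of members, against 15.4% of promoter peaks, and at the flanks it was 7.59% and 7.85%. Near intronic, intergenic and exonic peaks had TATCGATA at 0.493%, 0.183% and 0.352%. CAGCTG was at 9.86%, 5.31% and 12.3% of these classes. Shares below those of promoter peaks were thus not particular to members.

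TAATTA, the core that many homeodomain proteins bind, was at 9.62% of members (7.09 to 12.9%), against 14.7% and 18% of the flanking points. Among ranked distal intronic peaks outside the list it was at 11.2%, inside the members' interval. GCCAT followed by T, A or C, the core of the site of the Polycomb group protein Pho, was at 25.1% (21.0 to 29.6%), against 31.4% at each flank and 35.4% of ranked peaks outside the list. Both motifs were thus at lower shares in members than at their flanks. Near intronic and intergenic peaks had TAATTA at 9.37% and 11.4% and the Pho core at 23.4% and 27.1%, all inside the members' intervals. Exonic peaks had 4.58% and 21.1%. The flanks of these classes are not given here, so the lower shares are not shown to be particular to members. TGACTCA or its form with G in the middle, the AP-1 site that Jun and Fos bind at the end of the JNK pathway, was at 1.77% of members and 1.76% of promoter peaks. Its interval, like those of the other listed motifs not described here, included the share of at least 1 flank.

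A further 4 motifs were picked after the member sequences were seen, so their shares are a description of these members. GTAAACA, a core bound by forkhead factors, was at 39 members (9.87%, 7.31 to 13.2%), against 3.04% and 5.82% of the flanks, 5.60% of promoter peaks and 8.88% of near intronic peaks. The S window shown above holds it on the other strand. ATATTAAA was at 7.09% of members, against 3.80% and 2.78% of the flanks and 3.15% of promoter peaks. TACCCA was at 11.1% (8.40 to 14.6%), against 7.34% and 5.57% of the flanks and 4.86% of promoter peaks. CACACT, which can overlap ACACACAC by a few letters, was at 17.7%, against 11.4% and 10.9% of the flanks and 19.6% of promoter peaks. Near intronic, intergenic and exonic peaks had ATATTAAA at 3.70%, 3.11% and 1.41%. In the same order, TACCCA was at 6.29%, 8.97% and 4.58%, and CACACT at 15.2%, 14.3% and 19.7%. CACACT is thus not shown to be particular to members, and the intergenic share of TACCCA was inside the members' interval. A match is a run of letters and does not show that a factor was bound.

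Members were also poorer in G and C than weak candidates at like positions. Their median GC was 39.3% (quartiles 34.8 and 46.3%), close to the 40.1% of all eligible bases and the 40.3% and 40.8% of the flanks. Ranked distal intronic peaks outside the list had a median of 44.8%, and promoter peaks one of 44.3%.

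A small set of members had very low signals. With a limit of 30, chosen after the values were seen, 22 members had signals of 2.93 to 24.3, and the next lowest was 35.5. The lowest signals of the other classes were 2.12 (near intronic), 2.24 (intergenic), 2.60 (exonic) and 2.05 (promoter). How many peaks of those classes lay under the limit is not given here, so such signals are not shown to be particular to members. Each of the 22 lay 199 to 258 bp from another peak of the same list. Neither replicate list held 16 of them, and for 10 no ranked peak of either replicate was matched. Examples are wts, a kinase gene of the Hippo pathway (2.93), abd-A, a Hox gene (3.71), raskol (3.76) and N (4.24), also chosen after their values were seen. Beside N stood a member of signal 213 at 10609 bp from a start, against 10406 bp for the weak one. Over all signals, 24 members lay within 336 bp of a stronger peak of the list, 336 bp being the width of 356 of the 395 members. Neighbours this close can be matched to the same replicate peak, as at chinmo, where peaks of 87.3 and 35.5 both have 29.8 and 49.3 in the replicates. The 39 narrower members had a median signal of 261, against 85.0 for those of full width.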

How the data were processed

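Chromatin immunoprecipitation peaks were deposited for 2 biological replicates of 1 group, assigned by the replicate number in the labels, with dm6 as the build per the labels. No aligner or caller is named in the sources used here. The authors deposited each list as ranked peaks or as peaks past the IDR threshold, called per replicate, on both together (pooled), or matched between the replicates (conservative). The deposited signal is the peak caller's value, on a scale not given. The deposited score is a scaled IDR score, at least 830 past the threshold. The deposited −log10 columns hold q-values and IDR, and were not tested here.

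Summits were placed on Ensembl release 115 (BDGP6.54) genes and RefSeq release 6 sequence with Python 3.11.15 and numpy 2.4.6. The classes were promoter (within 500 bp of a protein-coding start), exonic, near intronic, distal intronic and intergenic. Peaks off the 7 arms (7) were left out of densities. Each replicate's signal was that of its own ranked peak overlapping by 50% of the shorter peak. Peaks are not replicates and no condition was compared, so no p-value is given. With 2 replicates, SDs describe these samples, and precision in reads is unknown. The overlap and motif steps were tested on simulated data. The class step was tested at random genome positions against a slower search of the same gene models.

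The members, gene lists and motifs were chosen with earlier results of these data known. A few list symbols were corrected to annotation names after the peak lists were seen, and 1 duplicate was dropped. Genes named are chm, hosts of the 15 strongest members in both replicate lists, hosts of 4 or more members, up to 3 strongest members per list, and 3 peaks either side of the limit. Other names were chosen after their values were seen. A gene list and some motifs are not reported here.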

Additional observations from a re-analysis of the deposited data

How the results depend on the processing

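The number of members was 655 in the pooled list, 180 among the stronger 50% of peaks, and 630 and 180 with limits of 2500 and 10000 bp. Their share of the list was 15% and 4.28% with those limits, and density relative to all peaks, 0.406 as reported, was 0.498 and 0.281. Over the single replicate lists, the number ran from 334 to 371, the share from 8.13 to 10.4%, the ratio of medians from 0.934 to 0.992, the relative density from 0.351 to 0.452, and GAGAG from 31.8 to 33.8%. The share in both replicate lists was 22.0% in the pooled list, 67.2% among the stronger peaks and 41.7% at 10000 bp. GAGAG was at 29.4% with 10000 bp, 29.6% with starts of any gene counted, 14.4% within 50 bp and 46.3% within 150 bp. Median GC was 40.3% in the pooled list, 38.8% in each replicate list, 37.8% among the stronger peaks, 39.8% at 2500 bp and 38.6% within 50 bp. Hosts with 2 or more members were 48.0% in the pooled list, 38.3 to 40.5% in the replicate lists, 25.9% among the stronger peaks, 39.4% at 10000 bp and 37.8% without peaks close to a stronger one, a setting chosen after seeing the data. First introns held 50.9 to 56.3% in the replicate lists, 54.4% among the stronger peaks, 57.0% at 2500 bp and 42.8% at 10000 bp. The cause was not tested. Of 249 values recomputed over 13 settings, 147 stayed within the spread between replicate lists or another limit. The other limits were the counting interval for the share in both lists and a fixed fold for the number of members. For the 15 other motifs, 70 of 165 moved beyond the spread. That spread was taken from the same replicate lists that are among the settings. The share in both replicate lists has no value with 1 replicate left out. No paired analysis was possible because the samples form a single group. Depth is unknown, so no limit on detection can be given.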

Other observations

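Of the 395 distal intronic peaks, 13 lay within 500 bp of the start of a non-coding gene, from which the rule set no distance. The share of eligible bases or of all peaks this close to such a start is not given here. Whether 13 is more or fewer than the background therefore cannot be said. These starts belonged to 7 long non-coding RNA genes and 4 tRNA genes, with the microRNA gene mir-965 in kis (364 bp from the summit, signal 65.7) and a start annotated in Tis11 besides. The closest was tRNA:Thr-AGT-1-7 in bnl, an FGF gene, with its start 14 bp from a summit of signal 61.5. In Hipk, a kinase gene, the summit lay 68 bp from the start of lncRNA:CR45808 (signal 105), and in puc 102 bp from lncRNA:CR44331 (120). The strongest was the beat-Ib peak of signal 280, 379 bp from lncRNA:CR44867.

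Beyond 30000 bp from a protein-coding start lay 18 members, among them 3 in hth, 2 each in Sema1a, kirre and lncRNA:CR46006, and 1 each in CG43759, CG42238, Snoo, ed, jing, lncRNA:CR32773, luna, nmo and tei. The farthest, in hth, was 86580 bp from a start, with a signal of 91.2 and signals of 66.4 and 26.6 in replicates 1 and 2. Others in hth lay 53509 bp (107) and 76815 bp (78.3) away. Sema1a had members at 31808 bp (174) and 59425 bp (78.1), of which the first was in both replicate lists. The strongest was in CG43759, at 32196 bp, with a signal of 195 and a place in both replicate lists. These genes were chosen after their values were seen.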
